A study of Homo sapiens with 12 samples.

Results

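Matrix metalloproteinases (MMPs) are zinc-dependent enzymes that cleave the extracellular matrix and proteins of the cell surface. The 10 genes described here, MMP1, MMP2, MMP3, MMP9, MMP13, MMP14, MMP15, MMP16, MMP17 and MMP24, were taken by name from the 32152 genes with RNA levels in the deposited table. They are read across 12 RNA libraries of 2 established triple-negative breast cancer lines, MDA-MB-231 and Hs-578T, with 2 libraries for each of the groups parental control, ERK5-ko and MEK5DD in either line. ERK5-ko cells carry guides against MAPK7, the gene of the kinase ERK5, and MEK5DD stands for an always-active MEK5, the kinase just above ERK5 in its pathway. By the study's methods, MDA-MB-231-ERK5-ko is the only clone left after sorting, and in Hs-578T several clones were obtained without a statement of which was sequenced. How the MEK5DD lines were made was not described there. The passage labels were 29 and 30 for MDA-MB-231 parental controls, 7 and 8 for MDA-MB-231 ERK5-ko and 10 and 11 for MDA-MB-231 MEK5DD. Those of Hs-578T were 83 and 84 for parental controls, and 8 and 9 for both ERK5-ko and MEK5DD. Against parental controls, passage label and genotype thus cannot be told apart, whereas in Hs-578T the engineered groups share their passage labels. By the study's methods, the ERK5-ko lines were made from cells at higher passages than these labels, so the labels do not count all passages. Where the count of the engineered lines starts is not stated, and equal labels need not mean equal passages.

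MMPs are made as inactive precursors, opened by other proteases and held in check by the tissue inhibitors of metalloproteinases (TIMPs). MMP1 and MMP13 are collagenases, MMP2 and MMP9 gelatinases that act on denatured collagen and basement membrane collagen, and MMP3 is a stromelysin with wide matrix substrates that also activates other MMPs. MMP14, MMP15, MMP16 and MMP24 are anchored in the cell membrane by a transmembrane segment, and MMP17 by a lipid. MMP14 at the cell surface is best known for cleaving collagen around invading tumour cells and for activating the MMP2 precursor together with TIMP2.

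All 10 genes encode the catalytic motif in which 3 histidines hold the zinc, and the motif was found 1 time in the longest coding transcript of each (GENCODE 29, GRCh38). The stretch is shown for the genes on which the results turn, because it is what makes them one family and because it tells how different their reads are. Each line gives the 33 coding bases from the first to the last of the 3 histidine codons, which are in capitals, in the sense of the gene.
MMP1: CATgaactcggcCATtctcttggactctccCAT
MMP3: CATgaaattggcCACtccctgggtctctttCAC
MMP2: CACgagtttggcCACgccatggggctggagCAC
MMP14: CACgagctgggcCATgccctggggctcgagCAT
MMP24: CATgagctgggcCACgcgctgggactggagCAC
The MMP1 stretch lies at chr11:102795549-102795581 and that of MMP3 at chr11:102840535-102840567, both on the minus strand in exon 5. That of MMP2 lies at chr16:55491827-55491859 in exon 8, that of MMP14 at chr14:22843283-22843315 in exon 5 and that of MMP24 at chr20:35263817-35263849 in exon 5, all on the plus strand. MMP1 and MMP3, neighbours on chromosome 11, had 24 of the 33 bases in common, MMP2 and MMP14 had 27, and MMP15 and MMP24 had 32. Over whole transcripts the genes were nonetheless distinct. No 40-base window of MMP14, MMP15, MMP17 or MMP13 occurred in a transcript of another gene, on either strand. The share was 3.94% of the windows of MMP1, all with the opposite-strand pseudogene WTAPP1, and 4.502% of those of MMP3, all with the related stromelysin gene MMP10, which had at most 5 reads in any library. It was highest for MMP9, at 12.4%, and MMP24, at 19.4%, both with genes that overlap them on the opposite strand.

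The values are RPKM, which scale the reads of a gene by its length and by the depth of the library. Library totals solved from the values ran from 20248162 to 27791195 reads. The gene lengths behind the RPKM equalled the mean length of a gene's transcripts less 1 base per exon, so that levels of different genes are compared here only as RPKM on those lengths, and by rank also on the longest transcript. RNA of MAPK7 was no lower under the ERK5-ko label, at 16.3 and 17.8 RPKM against 13.3 and 14.3 in parental controls of MDA-MB-231, and at 17.8 and 18.1 against 13.97 and 15.98 in Hs-578T, so each direction below refers to a label. ERK5 protein, which the study reported by Western blot as strongly reduced in the ERK5-ko cells of both lines, was not analysed here. MAP2K5, the gene of MEK5, reached 189 and 184 RPKM in MDA-MB-231 libraries labelled MEK5DD against 12.9 and 13.6 in parental controls, but only 21.3 and 23.8 against 14.6 and 16.9 in Hs-578T. ESR1, the oestrogen receptor gene, had 1 to 7 reads in every library, and VIM, a mesenchymal marker, 1598 to 4067 RPKM. CDH5, an endothelial marker, had at most 1 read and PTPRC, a leukocyte marker, at most 13. Other markers looked up did not all point the same way. PECAM1, also endothelial, had 6 to 218 reads, and CD14, also of leukocytes, 9 to 58. ERBB2 had 27.8 to 56.9 RPKM, EPCAM 0.0365 to 25.75, ACTA2 2.68 to 494.5 and PDGFRB 1.76 to 216. PGR had at most 0.348 RPKM and CDH1 at most 1.16, while CD44 and AXL had at least 819 and 388. Replicates varied beyond counting noise, most in Hs-578T parental and Hs-578T MEK5DD libraries, with a chi-square per degree of freedom of 30.7 and 41.9 against 2.82 to 8.78 in the other groups.

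In both lines the transcripts of MMP14 were abundant, and the lines were set apart by MMP2. In RNA of a whole culture, fewer expressing cells and less RNA per cell cannot be told apart. MMP14 (ENSG00000157227.12, chr14:22836557-22849027, plus strand, GRCh38) had 425 and 452 RPKM in MDA-MB-231 parental controls and 368 and 445 in those of Hs-578T. The groups overlapped, with a log2 difference of -0.11 (95% confidence interval -0.35 to 0.12, adjusted p = 0.347, limma). MMP2 (ENSG00000087245.12, chr16:55389700-55506691, plus strand) had 0.911 and 0.748 RPKM, 39 and 36 reads, in MDA-MB-231 and 747 and 839 RPKM in Hs-578T. The ratio of the means was 956, a log2 difference of 9.22 ± 0.133 (standard error, adjusted p = 3.06e-13, limma) on the scale of log2(RPKM + 0.5), which understates the change of low genes and is the scale of every log2 difference below. MMP14 alone made up 97.7% and 97.9% of the summed RPKM of the 10 genes in MDA-MB-231 parental controls, and 32.3% and 33.7% in Hs-578T, where MMP2 was the most abundant. On the longest transcript, too, MMP14 ranked 1 among the 10 genes in every MDA-MB-231 group and 2 in every Hs-578T group.

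The other membrane-type genes also differed between the parental lines. MMP16 (ENSG00000156103.15, chromosome 8) had 0.456 and 0.466 RPKM in MDA-MB-231 and 14.8 and 22.5 in Hs-578T, a log2 difference of 4.29 (adjusted p = 9.50e-09). MMP15 (ENSG00000102996.4, chr16:58025566-58046901, plus strand) had 3.97 and 3.73 RPKM against 9.46 and 11.3, a log2 difference of 1.32 (adjusted p = 3.35e-05). MMP17 (ENSG00000198598.6, chr12:131828393-131851783, plus strand) went the other way, with 1.68 and 2.28 RPKM in MDA-MB-231 and 0 and 0.274 in Hs-578T, 0 and 6 reads. MMP1 was lower in Hs-578T as well, by a log2 difference of -1.40 (adjusted p = 8.55e-06), and so was MMP24, by -0.74 (adjusted p = 0.000266), short of the fold threshold. The ratio of the MMP24 means, Hs-578T to MDA-MB-231 with nothing added, was 0.435. MMP3 had 0.322 and 0.254 RPKM in Hs-578T against 0.0851 and 0.114, a log2 difference of 0.39 (adjusted p = 0.0590). Of the 8 genes tested, 5 were called different between the parental lines, against 44.2% of the 13737 protein-coding genes tested. A gene was called at a Benjamini-Hochberg adjusted p under 0.05 in limma and a fold above 1.5 or below 0.5. This rule asks for a larger change downward than upward, which bears on the directions of called genes. The fold is taken with 0.5 RPKM added, so low genes can miss it although the ratio of their means passes. Scaling by median ratios moved the median of all genes in this comparison from -0.19 to 0.01, and with it the MMP14 difference to 0.12.

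The gelatinase MMP9 and the collagenase MMP13 were scarce everywhere and fell below the filter for testing, which asked for 0.5 RPKM or more in 2 or more libraries. MMP9 (ENSG00000100985.7, chr20:46008908-46016561, plus strand) had between 0 and 10 reads in any library and 0 in both MDA-MB-231 libraries labelled MEK5DD, which allows up to 0.0537 RPKM. Its highest values were 0.164 and 0.160 RPKM, in Hs-578T libraries labelled ERK5-ko. MMP13 (ENSG00000137745.11, chr11:102942995-102955734, minus strand) had 2 to 33 reads, and its highest values, 0.711 and 0.467 RPKM, were in the same libraries.

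**Figure D1:**
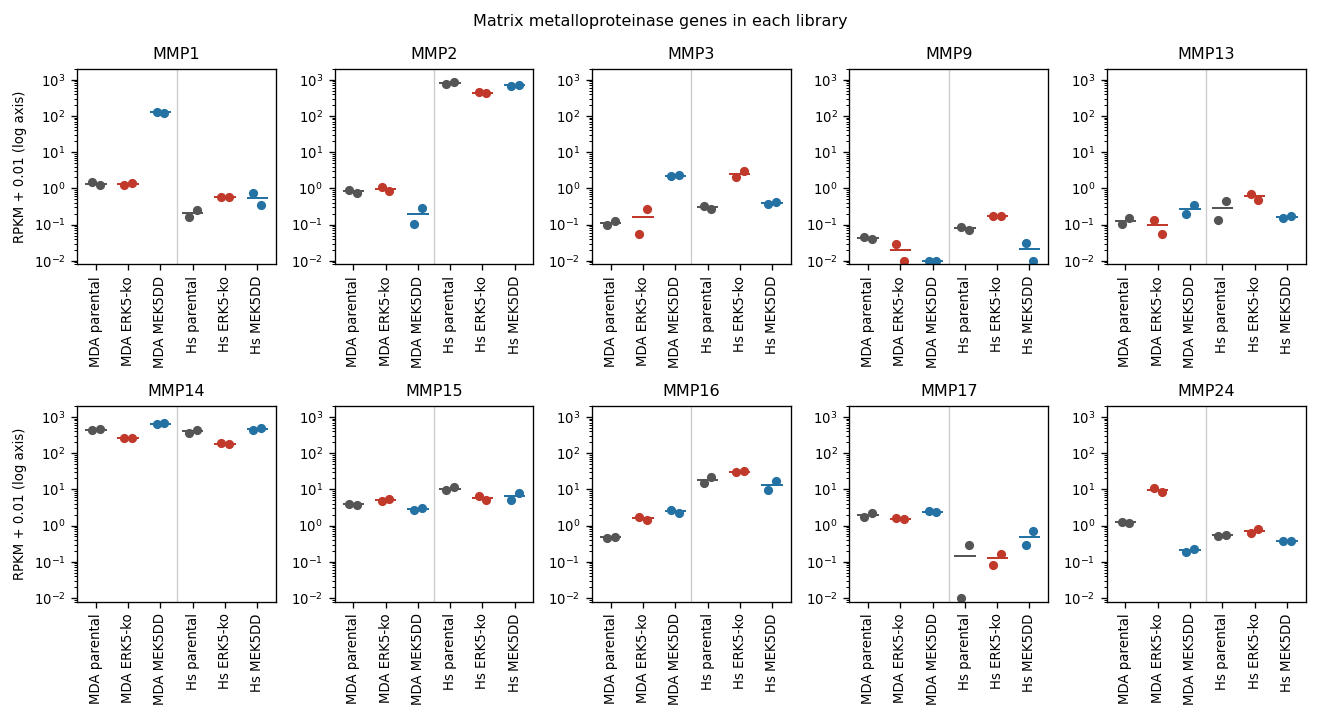
RPKM + 0.01 of the 10 genes on a log axis in each library, with points for libraries, bars for group means, MDA shortened from MDA-MB-231 and Hs from Hs-578T. MMP1 stands at 132 and 124 RPKM in MDA-MB-231 MEK5DD and at no more than 1.47 in any other library, and MMP2 separates the lines.

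In MDA-MB-231 libraries labelled MEK5DD, the collagenase and the stromelysin of chromosome 11 were both higher than in parental controls. MMP1 (ENSG00000196611.4, chr11:102789920-102798160, minus strand) had 1.47 and 1.23 RPKM in parental controls and 132 and 124 in libraries labelled MEK5DD. In reads this was 71 and 67 against 6209 and 6719, and the ratio of the means was 94.7. This rise was known when the family was chosen, so it is given as a description, without a test. MMP3 (ENSG00000149968.11, chr11:102835801-102843803, minus strand) rose from 0.0851 and 0.114 RPKM to 2.14 and 2.27, a log2 difference of 2.18 ± 0.176. Its parental libraries held only 2 and 3 reads against 49 and 60, a read ratio of 22.1 with an exact interval of 9.19 to 69.4 that covers counting error only. MMP3 passed the filter only through these libraries and those of Hs-578T labelled ERK5-ko, in which it was high. Its differences that involve either group are therefore descriptions, without a test, although MMP3 stays in the counts of genes tested and called. WTAPP1, which overlaps both genes on the opposite strand, had at most 3 reads in any library.

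The membrane-type genes moved in different directions under the same label. MMP16 rose from 0.456 and 0.466 RPKM to 2.67 and 2.27, a log2 difference of 1.62 ± 0.233 (adjusted p = 0.000188). MMP24 (ENSG00000125966.9, chr20:35226654-35277000, plus strand) fell from 1.26 and 1.17 RPKM to 0.179 and 0.213, a log2 difference of -1.30 ± 0.130 (adjusted p = 1.10e-05). MMP14 rose to 631 and 664 RPKM, a log2 difference of 0.56 (adjusted p = 0.00137), which lay just under the fold threshold. MMP2 was already low and fell to 0.0960 and 0.271 RPKM, 4 and 13 reads, a log2 difference of -0.97 (adjusted p = 0.000135) that did not reach the fold threshold either. The ratio of the MMP2 means, with nothing added, was 0.221. MMP15 had 2.72 and 3.14 RPKM against 3.97 and 3.73, and MMP17 had 2.44 and 2.39 against 1.68 and 2.28. Neither passed the test, with adjusted p values of 0.150 and 0.430. Leaving MMP1 aside, 2 of the other 7 genes tested were called higher, MMP3 and MMP16, and 1 lower, MMP24, against 13.9% of all genes in either direction, 7.64% higher and 6.31% lower. The median log2 difference of these 7 was 0.24, and that of all genes tested -0.01.

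In Hs-578T libraries labelled MEK5DD, where MAP2K5 rose far less, no MMP gene was called against parental controls, with a background of 4.38%. At an adjusted p under 0.05 alone, which 23.4% of all genes passed, 2 of the 8 genes did, MMP1 and MMP15. MMP1 had 0.731 and 0.348 RPKM, 29 and 14 reads, against 0.156 and 0.246, 7 and 10 reads, a log2 difference of 0.55 (adjusted p = 0.0313). MMP15 had 5.12 and 7.76 RPKM against 9.46 and 11.3, a log2 difference of -0.67 (adjusted p = 0.0200). MMP14 had 444 and 479 RPKM and overlapped the parental controls, with a log2 difference of 0.19 (95% confidence interval -0.05 to 0.42). MMP16 had 9.86 and 17.0 RPKM against 14.8 and 22.5, and MMP17 had 0.280 and 0.692 against 0 and 0.274, with adjusted p values of 0.165 and 0.0640. MMP2 had 687 and 701 RPKM against 747 and 839, MMP3 had 0.363 and 0.410 against 0.322 and 0.254, and MMP24 had 0.359 and 0.354 against 0.507 and 0.548, none of which passed the test. The fit pools the spread of all groups, and the parental and MEK5DD groups of Hs-578T had the noisiest replicates. With only their libraries, 17 of 13737 genes were called higher and 45 lower. The adjusted p was then 0.251 for MMP1 and 0.247 for MMP15. With all libraries, MMP1 was called with voom on whole reads, a pseudocount of 0.1 or median-ratio scaling, and with a block for the replicate number MMP17 was, each as 1 gene in place of 0. With a pseudocount of 1 or no filter on low values, MMP1 missed the adjusted p threshold (0.0573 and 0.0575). MMP1 no longer passed the adjusted p without MEK5DD replicate 1, parental replicate 1 or either ERK5-ko library of this line (0.0506 to 0.191), nor did MMP15 without MEK5DD replicate 1 or parental replicate 2 (0.124 and 0.103).

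The effect of the MEK5DD label differed between the lines for 4 genes beside MMP1, read against 39.6% of all genes. The log2 difference of Hs-578T minus MDA-MB-231 was -2.10 ± 0.330 for MMP16 (adjusted p = 0.000476), 1.04 ± 0.184 for MMP24 (adjusted p = 0.00106) and 0.78 ± 0.188 for MMP2 (adjusted p = 0.00685). For MMP3, given as a description, it was -2.00 ± 0.249. For MMP1 it was -5.57. MMP14 did not pass, at -0.38 with a 95% confidence interval of -0.71 to -0.04 and an adjusted p of 0.0705. It passed with a block for the replicate number (adjusted p = 0.0472), without Hs-578T parental replicate 1 (adjusted p = 0.0184, at -0.51) or without Hs-578T MEK5DD replicate 2 (adjusted p = 0.0405). MMP15 (-0.33) and MMP17 (0.39) did not pass. That of MMP2 missed the threshold with quantile normalization (adjusted p = 0.0605). The part of the different MAP2K5 levels in these differences was not tested.

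**Figure D2:**
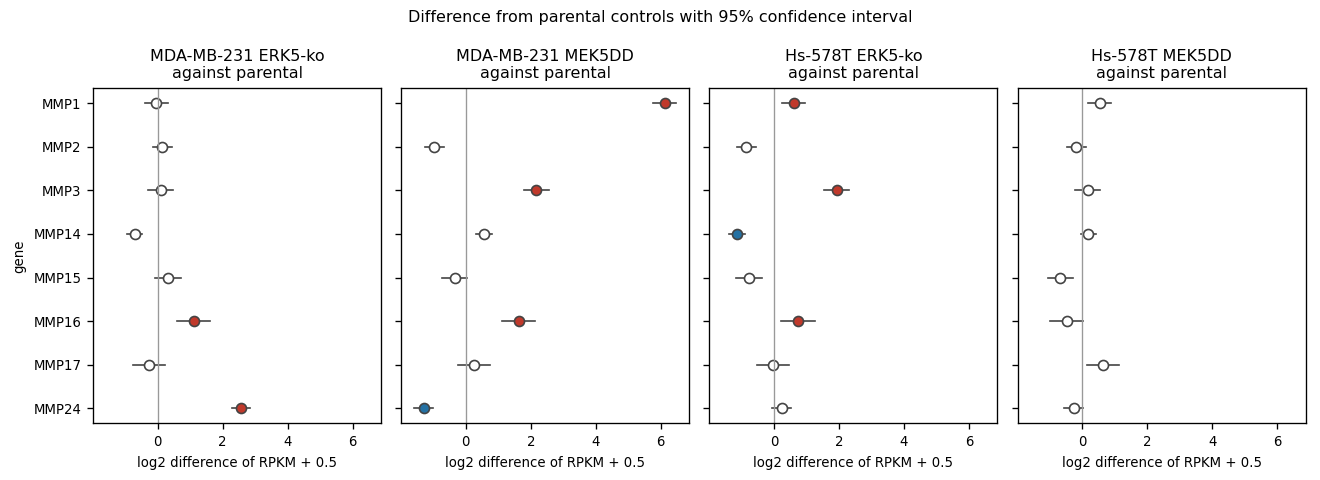
Log2 difference of RPKM + 0.5 from parental controls for the 8 genes tested, with bars for 95% confidence intervals, red for genes called higher, blue for genes called lower and white for genes not called. MMP14 lies left of 0 under the ERK5-ko label in both lines, at -0.71 and -1.14, and no gene is called for MEK5DD in Hs-578T. The MMP1 point in MDA-MB-231 MEK5DD is a description, since this rise was known when the genes were chosen. So are the MMP3 points there and in Hs-578T ERK5-ko.

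Under the ERK5-ko label, MMP14 was the gene that fell in both lines. In MDA-MB-231 it had 269 and 267 RPKM against 425 and 452 in parental controls, a log2 difference of -0.71 ± 0.107 (adjusted p = 0.00116), which did not reach the fold threshold. In Hs-578T it had 193 and 175 RPKM against 368 and 445, a log2 difference of -1.14 ± 0.107 (adjusted p = 1.40e-05), and was called lower. The groups did not overlap in either line, and both libraries labelled ERK5-ko lay under both parental controls. The difference between the lines was -0.43 (adjusted p = 0.0424), and it missed the threshold with quantile normalization, with no filter on low values and without any 1 of 9 of the 12 libraries (adjusted p values of 0.0519 to 0.151 without a library).

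The sequence before the MMP14 gene is shown because MMP14 moved with the ERK5-ko label in both lines. It runs from chr14:22836335-22836556 (GRCh38.p14, plus strand, RefSeq), the 222 bases that end at the first base before the listed gene, with GC boxes in capitals.
MMP14: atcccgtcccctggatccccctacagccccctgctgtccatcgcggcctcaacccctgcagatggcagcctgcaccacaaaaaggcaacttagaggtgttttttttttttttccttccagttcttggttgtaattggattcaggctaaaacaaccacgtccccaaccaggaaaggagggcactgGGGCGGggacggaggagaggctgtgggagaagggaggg
In the 250 bases before the RefSeq start, MMP14 held 1 match to the GC box GGGCGG on both strands searched, which 42.6% of 35116 such windows hold. It held none to the AP-1 site TGAGTCA (4.2% of windows, both strands), the ETS site AGGAAG (28.7%, both strands) or the TATA box TATAAA (6.8%, sense strand). A match is a description and not a binding site, and only 3 of the 10 genes, MMP14, MMP15 and MMP24, had a window.

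MMP24 rose under the ERK5-ko label in MDA-MB-231. It had 11 and 8.48 RPKM in libraries labelled ERK5-ko against 1.26 and 1.17 in parental controls, 1094 and 933 reads against 137 and 143. The ratio of the means was 8.03, a log2 difference of 2.57 ± 0.130 (adjusted p = 7.63e-07). In Hs-578T it had 0.623 and 0.806 RPKM against 0.507 and 0.548 in parental controls, a log2 difference of 0.24 (95% confidence interval -0.05 to 0.52, adjusted p = 0.170). The effect differed between the lines by -2.33 ± 0.184 (adjusted p = 5.66e-06).

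The whole of MMP24 is overlapped on the opposite strand by MMP24-AS1, which had many more reads, and how the authors' counting used strand is not given in the sources used here. In MDA-MB-231, MMP24-AS1 had 312 and 333 RPKM in parental controls, 586 and 623 under ERK5-ko and 197 and 201 under MEK5DD. Its level thus had the same order as that of MMP24. The reads of MMP24 were 2.47% and 2.15% of those of MMP24-AS1 in parental controls, 11.5% and 8.33% under the ERK5-ko label and 0.557% and 0.648% under MEK5DD. The share differed between the groups, and the part of misassigned reads in the MMP24 values was not tested. In Hs-578T MMP24-AS1 had 9.75 to 21.6 RPKM, 170 to 317 reads. A further gene on the opposite strand, RP4-614O4.11, had 719 to 2705 reads over the 12 libraries, more than MMP24-AS1 in every Hs-578T library.

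**Figure D3:**
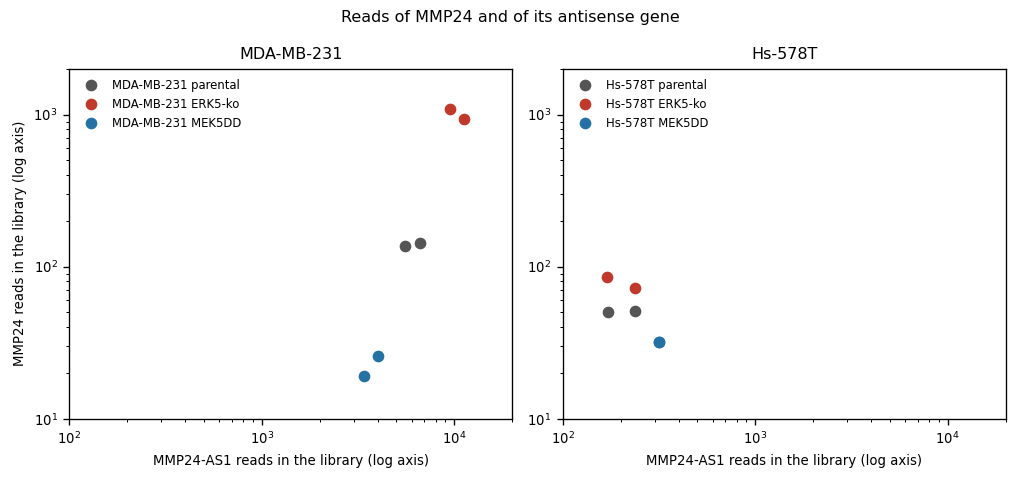
Reads of MMP24 against reads of the antisense gene MMP24-AS1 on log axes, 1 point per library, coloured by group. MDA-MB-231 groups are separate on both axes, with 1094 and 933 MMP24 reads under ERK5-ko and 19 and 26 under MEK5DD, and the 2 points of Hs-578T MEK5DD lie on each other at 32 reads.

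The bases before MMP24 are given because this gene was called higher under ERK5-ko and lower under MEK5DD in MDA-MB-231. They are chr20:35226440-35226653 (GRCh38.p14, plus strand, RefSeq), 214 bases up to the listed gene, with GC boxes of either strand in capitals.
MMP24: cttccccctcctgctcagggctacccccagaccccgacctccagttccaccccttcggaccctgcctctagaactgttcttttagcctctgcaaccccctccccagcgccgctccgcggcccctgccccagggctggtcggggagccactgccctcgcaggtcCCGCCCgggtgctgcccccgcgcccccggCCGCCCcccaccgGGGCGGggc
MMP24 held 3 GC boxes in its window and MMP15 held 5, and neither held a match to the AP-1, ETS or TATA letters.

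Of the remaining genes under the ERK5-ko label in MDA-MB-231, MMP16 rose from 0.456 and 0.466 RPKM to 1.76 and 1.41, a log2 difference of 1.11 ± 0.233 (adjusted p = 0.00734). MMP1 had 1.198 and 1.41 RPKM against 1.47 and 1.23, and the groups overlapped, as they did for MMP2 and MMP3. MMP15 had 4.69 and 5.24 RPKM against 3.97 and 3.73 and MMP17 1.64 and 1.48 against 1.68 and 2.28, with adjusted p values of 0.247 and 0.483. So 2 of the 8 genes were called, MMP16 and MMP24, both higher, against 3.87% of all genes in either direction and 2.80% higher, and the median log2 difference was 0.12 against -0.04 over all genes. By the adjusted p alone, 2 were higher and 1, MMP14, was lower. Of all 13737 genes, 949 were then higher and 1430 lower. MMP16 lost its call without parental replicate 1, parental replicate 2 or ERK5-ko replicate 1 of this line, with log2 differences of 1.11, 1.12 and 0.99 and adjusted p values of 0.0533, 0.0509 and 0.0675.

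In Hs-578T the secreted enzymes changed in both directions. The stromelysin MMP3 rose from 0.322 and 0.254 RPKM to 2.004 and 3.08, 7 and 5 reads against 50 and 71, a log2 difference of 1.93 ± 0.176. It passed the filter only through the libraries labelled ERK5-ko here and those of MDA-MB-231 labelled MEK5DD. The rise is therefore a description, without a test. MMP1 rose from 0.156 and 0.246 RPKM to 0.564 and 0.569, 7 and 10 reads against 29 and 27, a log2 difference of 0.61 ± 0.162 (adjusted p = 0.0119). MMP2, the most abundant gene of the family here, fell from 747 and 839 RPKM to 455 and 418, a log2 difference of -0.86 ± 0.133 (adjusted p = 0.000453) that did not reach the fold threshold. Of the membrane types beside MMP14, MMP15 fell from 9.46 and 11.3 RPKM to 6.68 and 5.201, a log2 difference of -0.76 (adjusted p = 0.00609), also short of the fold threshold, and without ERK5-ko replicate 2 its adjusted p was 0.0774. MMP16 rose from 14.8 and 22.5 RPKM to 29.3 and 32.4, a log2 difference of 0.74 ± 0.233 (adjusted p = 0.0268). MMP17 had 0.0721 and 0.156 RPKM, 2 and 4 reads, and overlapped its parental controls. In all, 3 of the 8 genes were called higher, MMP3 included, and 1 lower, against 12.6% of all genes in either direction, 9.35% higher and 3.27% lower. By the adjusted p alone 6 passed, 3 higher and 3 lower, against 39.4% of all genes, 2706 of them higher and 2707 lower. The median log2 difference was 0.11, and 0.01 over all genes. Without parental replicate 1, ERK5-ko replicate 1 or ERK5-ko replicate 2 of Hs-578T, MMP1 (adjusted p values of 0.0718, 0.0544 and 0.0680) and MMP16 (0.207, 0.0742 and 0.152) lost their calls, and MMP3 and MMP14 were left.

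Between the lines, the effect of the ERK5-ko label differed for 6 of the 8 genes, against 39.8% of all genes. Beside MMP14 and MMP24 these were MMP3, as a description, with a log2 difference of Hs-578T minus MDA-MB-231 of 1.83 ± 0.249, MMP15 with -1.09 ± 0.254 (adjusted p = 0.00590), MMP2 with -1.01 ± 0.188 (adjusted p = 0.00160) and MMP1 with 0.64 ± 0.229 (adjusted p = 0.0442). MMP16, called higher in both lines, differed by -0.38 with a 95% confidence interval of -1.10 to 0.35 (adjusted p = 0.386), and MMP17 by 0.24 (adjusted p = 0.568). That of MMP1 missed the threshold under 5 of the 10 alternatives run for it and without any 1 of 9 of the 12 libraries (adjusted p values of 0.0606 to 0.146 without a library).

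The engineered groups were also compared directly, which in Hs-578T removes the difference in passage labels. In Hs-578T, MMP14 was lower under ERK5-ko than under MEK5DD, 193 and 175 RPKM against 444 and 479, a log2 difference of -1.33 ± 0.107 (adjusted p = 2.27e-06). MMP3, as a description, was higher by 1.76 ± 0.176 on the log2 scale, and MMP16 by 1.22 ± 0.233 (adjusted p = 0.00128). These 3 genes were called, against a background of 19.3%. MMP1 (0.06) and MMP15 (-0.09) overlapped between the groups. At an adjusted p under 0.05 without the fold threshold, MMP2 (-0.67) and MMP17 (-0.65) were lower and MMP24 (0.50) higher, 6 of 8 genes in all against 50.0% of all genes. MMP17 missed that threshold with voom on recovered reads (adjusted p = 0.0690), no filter on low values (0.05665) or only the libraries compared (0.0878). Without Hs-578T ERK5-ko replicate 2, MMP17 (adjusted p = 0.0715) and MMP24 (adjusted p = 0.0762) no longer passed, and MMP17 also did not without ERK5-ko replicate 1 or MEK5DD replicate 2 (0.156 and 0.223).

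In MDA-MB-231, 5 of the 7 genes other than MMP1 were called between the engineered groups, against a background of 23.6%. MMP14 was again lower under ERK5-ko, by a log2 difference of -1.27 ± 0.107 (adjusted p = 1.67e-06). MMP3, as a description, was lower too, by -2.08 ± 0.176, opposite in sign to its difference in Hs-578T. MMP24 was higher by 3.87 ± 0.130 (adjusted p = 9.95e-10), MMP2 by 1.12 ± 0.133 (adjusted p = 2.58e-05) and MMP15 by 0.67 ± 0.179 (adjusted p = 0.00747). MMP1 had a log2 difference of -6.15, given without a test since it rests on the rise known beforehand. MMP16 (-0.51, adjusted p = 0.0840) and MMP17 (-0.50, adjusted p = 0.0773) did not pass in the main fit. Both passed with quantile normalization (adjusted p = 0.0469 and 0.0485), only the libraries compared (0.0347 and 0.00758) or the replicate block (0.0103 and 0.0132). MMP17 also passed with a pseudocount of 1 (0.0313). Under the remaining alternatives other than leaving out a library, neither passed. MMP15 lost its call without ERK5-ko replicate 2 (adjusted p = 0.0551) or MEK5DD replicate 1 (adjusted p = 0.0626). These values share libraries with the comparisons against parental controls and add no independent samples.

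Ordered by level, MMP14 ran from 175 and 193 RPKM in Hs-578T ERK5-ko through 267 and 269 in MDA-MB-231 ERK5-ko to 631 and 664 in MDA-MB-231 MEK5DD. The groups in between, both parental controls and Hs-578T MEK5DD, lay from 368 to 479 RPKM and overlapped each other. For each tested gene, the 3 other genes with the highest Pearson correlation over the 12 libraries were looked up as a description, which the difference between the lines can set. Those of MMP2 were MEIS3, FBLIM1 and COL1A1 (r = 0.999 each), those of MMP16 were PCDHB2, PREPL and CCDC80 (r = 0.992, 0.988 and 0.987) and those of MMP14 were RHBDF1, ZFP36L1 and SETDB2 (r = 0.940, 0.939 and 0.934). Those of MMP15 were GLIS2, SOX12 and BRE (r = 0.972, 0.968 and 0.958) and those of MMP17 were LRCH1, CCNT1 and LPIN2 (r = 0.986, 0.983 and 0.983). MMP1 had MYB, HEYL and EYA1 (r = 0.994, 0.994 and 0.992), MMP3 had FXYD5, SLITRK5 and VPS18 (r = 0.960, 0.954 and 0.953) and MMP24 had BTNL9, ODAM and KCNQ1 (r = 0.975, 0.974 and 0.963). All 3 genes most like MMP1 reached at most 1.36 RPKM, and all 3 most like MMP24 at most 0.909. Correlations of MMP1 can be set by MDA-MB-231 MEK5DD alone, and those of MMP24 by MDA-MB-231 ERK5-ko, where each was highest.

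Of the other MMP family genes on a fixed list of 13, 12 had a row and 4 passed the filter. MMP11, a stromelysin made active inside the cell, had 25.3 and 24.8 RPKM in Hs-578T parental controls, 4.40 and 3.09 under ERK5-ko and 25.7 and 24.6 under MEK5DD. The log2 difference of ERK5-ko from parental controls was -2.60 ± 0.135 (adjusted p = 1.50e-07). In MDA-MB-231 it was MEK5DD under which MMP11 fell, from 5.99 and 6.26 RPKM to 1.58 and 1.61 (log2 difference -1.66, adjusted p = 2.09e-06). MMP8, a collagenase of the same cluster on chromosome 11 as MMP1 and MMP3, had 2.68 and 2.52 RPKM there against 0.196 and 0.349 in parental controls, 93 and 101 reads against 7 and 14. It passed the filter only through these 2 high libraries and is given as a description, without a test. Over the 4 genes, MMP8 included, the median log2 difference was -0.27 and -0.79 under ERK5-ko in MDA-MB-231 and Hs-578T and -0.41 and -0.04 under MEK5DD, while the medians of all genes were -0.04, 0.01, -0.01 and -0.08.

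Among 6 tested inhibitors of 7, 2 were called lower in MDA-MB-231 MEK5DD and none higher, beside 6.31% of all genes lower and 7.64% higher, with a median log2 difference of -0.83 against -0.01 over all genes. TIMP3, the inhibitor that binds to the matrix, fell from 107 and 108 RPKM to 24.0 and 23.2 (log2 difference -2.16, adjusted p = 1.22e-08), and TFPI2, a protease inhibitor of the matrix, from 46.9 and 46.4 to 13.6 and 11.7 (log2 difference -1.84, adjusted p = 4.88e-06). Under ERK5-ko in the same line TFPI2 rose to 114 and 136 RPKM (log2 difference 1.41, adjusted p = 0.000245), the only inhibitor called there, beside 3.87% of all genes in either direction. In Hs-578T no inhibitor was called under ERK5-ko, beside 12.6% of all genes. Under MEK5DD in that line TFPI2 was called higher at a level of 0.745 and 0.387 RPKM, beside 4.38% of all genes in either direction. The medians of the inhibitors were 0.09 and -0.12 under ERK5-ko in MDA-MB-231 and Hs-578T, and 0.34 under MEK5DD in Hs-578T.

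Of 11 tested activators and surface partners of 14, PLAU, the urokinase that starts the plasmin cascade, was the 1 called under ERK5-ko in MDA-MB-231, falling from 1125 and 1210 RPKM to 459 and 466 (log2 difference -1.34, adjusted p = 4.03e-06). In that comparison 3.87% of all genes were called. Under MEK5DD in that line 1 was called higher and 3 lower, beside 7.64% and 6.31% of all genes. SERPINE2, an inhibitor of serine proteases, rose from 4.20 and 5.30 RPKM to 35.2 and 38.7, and ITGB3, an integrin chain, fell from 4.98 and 5.09 to 1.32 and 1.61. In Hs-578T, 3 were called higher under ERK5-ko, beside 9.35% of all genes, among them the surface receptor CD44 (log2 difference 0.70, adjusted p = 0.000275). The medians of the list were -0.10 and 0.30 under ERK5-ko in MDA-MB-231 and Hs-578T and -0.38 and -0.05 under MEK5DD.

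All 15 transcription factors of the list, chosen because their sites are known from MMP promoters, were tested. In Hs-578T, 3 were called higher under ERK5-ko and none lower, beside 9.35% and 3.27% of all genes, among them ETV4, an ETS factor, from 10.1 and 9.47 RPKM to 25.6 and 28.6, and FOSL1, an AP-1 subunit, from 48.6 and 48.5 to 119 and 117. Under MEK5DD in MDA-MB-231 ETS1 was the 1 called, from 64.4 and 63.1 RPKM to 206 and 195 (log2 difference 1.65, adjusted p = 2.36e-06). In that comparison 13.9% of all genes were called. JUND, an AP-1 subunit, was the 1 called under ERK5-ko in MDA-MB-231 (0.71, adjusted p = 0.00259), beside 3.87% of all genes in either direction. None was called in Hs-578T MEK5DD, beside 4.38% of all genes. Medians lay between -0.14 and 0.06 in the comparisons with parental controls.

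Of 13 tested substrates, the laminin chain LAMB3 rose in Hs-578T under ERK5-ko (log2 difference of 1.34, adjusted p = 1.12e-05), with 4 called higher and 1 lower in all, beside 9.35% and 3.27% of all genes. Under MEK5DD in Hs-578T, 2 were called, both higher, beside 4.38% of all genes in either direction, among them SPARC, a collagen-binding matrix protein (log2 difference 0.73, adjusted p = 0.0289). In MDA-MB-231, COL1A2, a chain of type I collagen, fell from 6.81 and 6.80 RPKM to 1.98 and 1.28 under ERK5-ko and to 0.116 and 1.11 under MEK5DD. It was the 1 substrate called under ERK5-ko there, beside 3.87% of all genes in either direction. Under MEK5DD 2 were called higher and 3 lower, beside 7.64% and 6.31% of all genes, with SPARC at 2.11 and 3.09 RPKM against 1.17 and 0.538. The medians were -0.16 and 0.16 under ERK5-ko in MDA-MB-231 and Hs-578T and -0.44 and 0.05 under MEK5DD.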

How the data were processed

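RNA was taken at 70% confluence and sequenced from stranded mRNA libraries. The submitters' processing notes name bcl2fastq, Trimmomatic 0.32, TopHat2 2.1.1, R 3.3.1, DESeq2 1.12.4 and GRCh38, and the counting tool, its strand setting and the annotation are not given in the sources used here. The authors deposited RPKM values for 32152 genes, 17665 of them protein coding. Whole reads were recovered for all 32152 genes at a tolerance of 1e-06, whereas totals up to 1% off gave them for 0 of 500. Of the reads, 92.0% to 94.5% lay on listed genes.

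Groups were taken from the labels. RPKM values were taken as log2 after adding 0.5, for the 13737 protein-coding genes that reached 0.5 RPKM in 2 or more of the 12 libraries. limma 3.58.1 (R 4.3.3) fitted a mean per group to them with a variance trend, leaving 6 residual degrees of freedom. P values were adjusted by Benjamini-Hochberg over all genes tested within each of 9 comparisons. With 2 libraries against 2, an exact permutation test cannot go below a two-sided p of 0.333, so the spread was pooled. Replicates are consecutive passages, and p values measure the spread between them only. Scripts were tested on simulated data. The 10 genes, the gene lists and the tests were chosen with earlier results of these data known.

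The genes named are the 10 members (MMP9 and MMP13, which were not tested, by their levels), MAPK7, MAP2K5, a list of cell type markers, up to 2 called genes of each list with the largest change against parental controls, and the 3 genes most like each member. Of the listed genes, 2 are not reported here. MMP24-AS1 and WTAPP1 were named after their values were seen. Alternatives changed the pseudocount, filter, scaling, gene types, libraries and fold threshold, used voom on recovered reads, blocked by replicate number or left out each library. Protein sequences were not used here. Python 3.11.15, numpy 2.4.6, pandas 2.3.3 and matplotlib 3.10.9 were used.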

Additional observations from a re-analysis of the deposited data

Results flagged for a closer look

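The effect of a label differed between the cell lines in 11 cases, all given with the data above, as Hs-578T minus MDA-MB-231 on the log2 scale. Apart from MMP3 and from MMP1 under MEK5DD, they rest on a test of the difference itself in limma. Under ERK5-ko these were MMP1 at 0.64, MMP2 at -1.01, MMP3 at 1.83, MMP14 at -0.43, MMP15 at -1.09 and MMP24 at -2.33. Under MEK5DD they were MMP2 at 0.78, MMP3 at -2.00, MMP16 at -2.10 and MMP24 at 1.04. The MEK5DD difference of MMP1, -5.57, rests on the rise known when the genes were chosen and is a description. Those of MMP3 are descriptions as well, since it passed the filter only through groups in which it was high. Such differences were found in 39.8% of all genes tested for ERK5-ko and 39.6% for MEK5DD.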

How the results depend on the processing

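Over 10 alternatives other than leaving out a library (the fold threshold bears on counts only), 680 of the log2 differences of the 8 tested genes stayed on the same side of the threshold in the same direction, 16 newly passed it, 17 no longer did and 7 changed sign. Without 1 library at a time, these numbers were 796, 18, 40 and 10. The count of MMP genes called in Hs-578T MEK5DD, 0, became 1 with a pseudocount of 0.1, median-ratio scaling, voom on recovered reads or the replicate block, and 2 with quantile normalization or no fold threshold. Of 13737 genes, 398 were called higher and 204 lower there in the main fit. The numbers were 462 and 411 with the pseudocount of 0.1, 542 and 169 with median-ratio scaling and 453 and 458 with voom. With the block they were 417 and 204, with quantile normalization 586 and 168, and with no fold threshold 884 and 2329. The count of MMP genes in Hs-578T ERK5-ko against MEK5DD, 3, became 5 with a pseudocount of 0.1 and 6 with no fold threshold. All genes called higher and lower there were 2107 and 544 in the main fit, 2415 and 780 with that pseudocount and 4224 and 2642 with no fold threshold. The replicate numbers show only consecutive passages, and the deviations of same-numbered libraries correlated at 0.107 to 0.541 within the lines. With the replicate block, the 1 call in Hs-578T MEK5DD was MMP17 and no other count of MMP genes moved by more than 1.5 times. The block also brought the adjusted p under 0.05 for MMP16 in Hs-578T MEK5DD (0.0287), for MMP16 and MMP17 in MDA-MB-231 ERK5-ko against MEK5DD (0.0103 and 0.0132) and for the MMP14 difference between lines under MEK5DD (0.0472).

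None of the values that changed sign passed the test. For MMP1 in MDA-MB-231 ERK5-ko they were 0.015 (median-ratio scaling) and 0.033 (quantile normalization), with a range of -0.13 to 0.058 without 1 library at a time. For MMP1 in Hs-578T ERK5-ko against MEK5DD they were -0.0022 and -0.0057 under the same scalings, with a range of -0.21 to 0.33. MMP17 in Hs-578T ERK5-ko gave 0.12 with a pseudocount of 0.1 and 0.72 with voom, and -0.34 to 0.29 without a library. MMP14 between the parental lines gave 0.12 with median-ratio scaling and -0.25 to 0.023 without a library. In the same way MMP15 in Hs-578T ERK5-ko against MEK5DD ran from -0.37 to 0.19, MMP3 in MDA-MB-231 ERK5-ko from -0.13 to 0.33, and the difference of MMP17 between the lines under ERK5-ko from -0.075 to 0.56. The cause of these changes was not tested.

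Without 1 library at a time, the counts of MMP genes called, MMP1 included, ran from 1 to 2 in MDA-MB-231 ERK5-ko, 2 to 4 in Hs-578T ERK5-ko, 4 to 6 in MDA-MB-231 MEK5DD, 0 to 2 in Hs-578T MEK5DD, 5 to 6 and 3 to 4 between the engineered groups of MDA-MB-231 and Hs-578T, 5 to 5 between the parental lines, and 4 to 6 and 5 to 7 for the differences between lines under ERK5-ko and MEK5DD. In Hs-578T ERK5-ko, 3 of 4 were left with a pseudocount of 1, without MMP1, beside 1093 genes called higher and 330 lower of 13737. Without MMP16, 3 were also left with no filter (1284 and 450 of 17665 genes) or only the libraries compared (1168 and 443 of 13737). Genes with few reads, MMP9, MMP13 and in part of the groups MMP1, MMP3 and MMP17, are limited by depth.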
